A study of Mus musculus with 6 samples.

Results

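The lysosomal cathepsins Ctsa, Ctsb, Ctsc, Ctsd, Ctse, Ctsf, Ctsh, Ctsl, Ctss and Ctsz were followed through 6 mouse tissue sections in which histone marks had been mapped spot by spot. The 10 genes were taken by symbol, written in capitals in the files (CTSA, CTSB, CTSC, CTSD, CTSE, CTSF, CTSH, CTSL, CTSS and CTSZ), from 19378 genes held by at least 1 section. The set was chosen by its H3K27ac levels in the paws, as the log2 ratio of arthritic over control paw, so those levels are a description. All 10 genes had rows in the control paw and in the 3 embryo sections. Ctsb and Ctsd had no row for the arthritic paw or the brain, and their levels there were not analysed here.

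Each group was 1 section, and the labels name neither strain nor sex. The arthritic paw came from an adult mouse with collagen-induced arthritis (CIA) at 42 days, a model in which immunisation with cartilage collagen inflames the joints. The control paw came from an adult mouse labelled control, at 42 days. Both paws were formalin-fixed, decalcified and paraffin-embedded, were sectioned through the ankle, near the talus, at 4 µm, and were stained for H3K27ac, an acetylation mark of active promoters and enhancers. The wild-type whole embryo at E11.5 gave 3 cryosections of 16 µm, 1 each for H3K27ac, for H3K27me3, the methylation mark of Polycomb-repressed chromatin, and for H3K4me3, the mark of active promoters. The wild-type adult brain gave 1 cryosection of 20 µm for H3K4me3. The labels do not say how many animals the embryo sections came from, and with 1 section per group no difference between groups had a replicate check or a test.

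Cathepsins are proteases that work mostly in the acid interior of lysosomes. They are made as inactive precursors, are carried to the lysosome largely by mannose 6-phosphate receptors, and are activated there by other proteases. Ctsa is a serine carboxypeptidase that also protects lysosomal sialidase and beta-galactosidase, Ctsd and Ctse are aspartic proteases, and the others are papain-like cysteine proteases. In joints, macrophages, synovial fibroblasts and osteoclasts are known sources of cathepsins, which can degrade collagen and proteoglycan.

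The values below are reads per gene and spot, recovered from the order of the deposited quantile-normalised signal. The sections held 15064699 such reads over 3450 spots. The paws were the deepest, with 5344438 reads over 943 spots in arthritis and 5981684 over 554 spots in the control. The brain held 2036521 reads over 1200 spots, and the embryo sections held 403483 to 749650 reads over 248 to 254 spots. The median gene had 274 reads in the arthritic paw, 142 in the control paw and 120 in the brain. In the embryo it had 12.0 reads for H3K27ac, 14.0 for H3K27me3 and 7.00 for H3K4me3. Low embryo sums therefore carried wide counting intervals. All intervals are 95% intervals, exact Poisson for a read sum and exact binomial for a share or a ratio, and they cover counting error only. Summed marker genes of the labelled tissues had reads in every section, but did not mark the tissues sharply. The 5 neuron markers took 78.9 of every 100000 reads of the brain section and 25.3 to 33.7 in the embryo sections. They took 45.0 in the control paw and 53.4 in the arthritic paw, which held 4 of the 5. The embryo liver and blood markers ran opposite to the labels, with 4.46 to 6.54 in the embryo sections and 6.69 in the control paw. They took 18.5 in the brain, which held 4 of the 5, and 17.8 in the arthritic paw, which held 3. Skeletal muscle markers took 40.5 in the arthritic paw, 17.7 in the control paw and 19.2 in the brain. The gene sets behind these totals differ between sections. None of the marker genes held by a section lacked reads there, but markers without a row are not counted. The arthritic paw, for example, held 6 of the 12 macrophage markers, so this does not show that every marker was present. In every section a spot covers many cells, so more cells of a type and more mark per cell cannot be told apart.

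The widest paw differences were those of Ctsl, Ctsz and Ctsf. Their promoters, and that of Ctss as a member with little signal, are shown here because H3K27ac is deposited at promoters. The windows run from 250 bases before to 50 bases after the RefSeq transcription start on the GRCm38.p6 build, and lie at chr13:64370471-64370770 on the minus strand for Ctsl, chr2:174438990-174439289 on the minus strand for Ctsz, chr19:4854915-4855214 on the plus strand for Ctsf and chr3:95526536-95526835 on the plus strand for Ctss. Capitals mark matches to the motifs searched on both strands, given after the sequences.
Ctsl: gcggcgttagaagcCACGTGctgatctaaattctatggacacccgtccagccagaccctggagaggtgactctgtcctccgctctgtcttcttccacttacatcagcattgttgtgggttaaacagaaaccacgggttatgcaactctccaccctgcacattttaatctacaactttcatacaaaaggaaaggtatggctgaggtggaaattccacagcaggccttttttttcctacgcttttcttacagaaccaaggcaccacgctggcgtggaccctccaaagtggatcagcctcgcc
Ctsz: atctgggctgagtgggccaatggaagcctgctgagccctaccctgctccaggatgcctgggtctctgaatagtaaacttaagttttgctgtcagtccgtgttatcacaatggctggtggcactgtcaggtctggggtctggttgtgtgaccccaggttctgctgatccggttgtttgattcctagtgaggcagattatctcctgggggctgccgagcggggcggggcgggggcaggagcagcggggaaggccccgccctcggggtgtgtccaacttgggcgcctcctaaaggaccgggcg
Ctsf: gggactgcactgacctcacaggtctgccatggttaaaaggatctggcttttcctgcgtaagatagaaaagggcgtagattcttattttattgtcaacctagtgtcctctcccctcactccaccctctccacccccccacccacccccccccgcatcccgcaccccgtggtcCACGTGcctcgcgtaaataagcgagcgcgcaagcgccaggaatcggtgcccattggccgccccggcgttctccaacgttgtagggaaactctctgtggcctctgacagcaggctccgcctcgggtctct
Ctss: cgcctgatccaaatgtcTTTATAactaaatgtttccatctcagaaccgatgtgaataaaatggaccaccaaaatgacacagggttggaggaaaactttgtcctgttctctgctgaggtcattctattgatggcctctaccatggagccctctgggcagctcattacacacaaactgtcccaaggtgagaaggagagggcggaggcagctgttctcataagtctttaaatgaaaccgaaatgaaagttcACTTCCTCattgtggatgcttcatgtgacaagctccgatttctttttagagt

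The motifs were CACGTG, the core E-box bound by TFEB and other factors of the MiT family that control lysosomal genes, TGANTCA (AP-1), TATAAA (the TATA box) and GAGGAAGT (PU.1). CACGTG occurred 1 time in the promoters of Ctsl and Ctsf and 2 times each in that of Ctsd and in the second listed start of Ctsa. It did not occur in the windows of Ctsc, Ctss, Ctsz or the first start of Ctsa. Over 32851 RefSeq promoters of the same length, 7.15% held it. The capitals in the Ctss sequence are 1 match to TATAAA on the opposite strand (13.6% of all promoters) and 1 to GAGGAAGT on the opposite strand (3.20%), a match also found 1 time in Ctsc. TGANTCA, found in 7.81% of all promoters, occurred in none of these windows, and no matches overlapped each other. CpG dinucleotides numbered 10 in Ctsl, 12 in Ctsz, 19 in Ctsf, 33 in Ctsd and 5 in Ctss, beside a median of 7.00 over all promoters. Of the 10 genes, 7 matched the RefSeq promoter table, and Ctsb, Ctse and Ctsh were unmatched. A motif match is a description of letters, not a bound site.

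Levels of different members were compared per kilobase of RefSeq gene span. This order applies only if reads were counted over the gene body, which the labels do not state; by reads alone Ctsf (1451) and Ctse (1447) were level in the arthritic paw, ahead of Ctsa (516). In the control paw Ctsl and Ctsz stood far above the rest, with 721 and 580 reads per kb, and Ctsa followed with 115. Ctsf had 34.9 reads per kb, Ctsb 14.5, Ctse 11.7, Ctsh 7.65 and Ctsd 5.71, and Ctss and Ctsc were lowest with 2.90 and 2.54. In the arthritic paw the order was led by Ctsf, with 252 reads per kb, then Ctsa with 63.2, Ctse with 38.9, Ctsz with 31.3 and Ctsl with 21.1. Ctsh had 8.11, Ctss 6.11 and Ctsc 2.83 reads per kb there. Per kilobase, 31 of the 56 member and section pairs lay above the median gene of their section, and 5 lay in the top 10%: Ctsl, Ctsz and Ctsa in the control paw, Ctsf in the arthritic paw and Ctsl in embryo H3K27ac. Sections hold different gene sets, from 11130 to 19378 genes, so the median gene is not the same yardstick in each. Ctsc, a dipeptidyl peptidase that activates serine proteases of granulocytes, and Ctss, a cysteine protease of antigen-presenting cells, made up 8 of the 9 pairs in the lowest 25%. Together the 10 genes took 0.258% of the reads of the control paw, where they were 0.0516% of the genes. The 8 genes held by the arthritic paw took 0.0828% of its reads and were 0.0719% of its genes.

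**Figure D1:**
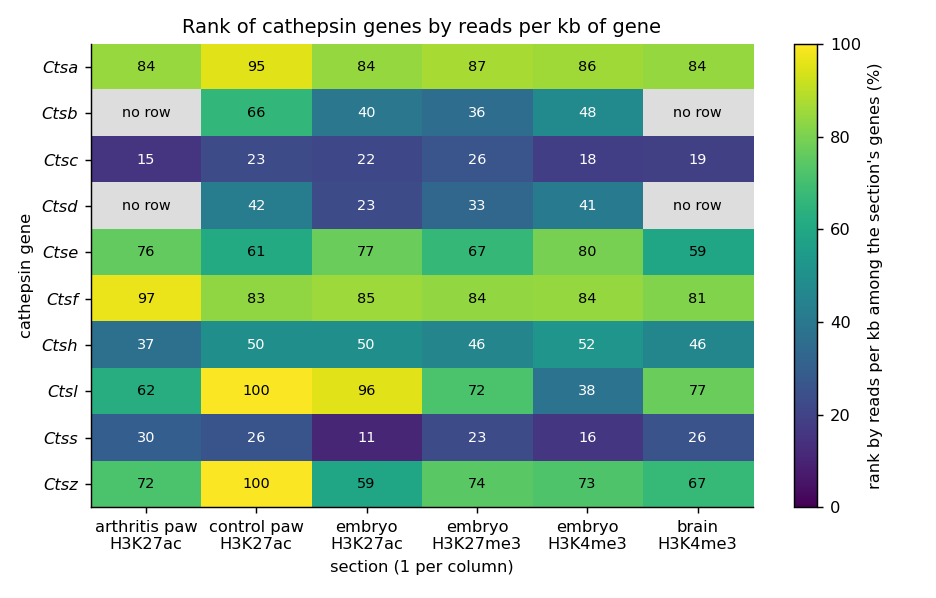
Rank of each cathepsin gene by reads per kb of RefSeq gene span among the genes of a section (0 lowest, 100 highest); rows are genes, columns are the 6 sections and gray cells have no row. Ctsl and Ctsz lie at 99.6% and 99.5% in the control paw and at 62.4% and 71.7% in the arthritic paw, while Ctsf lies at 83.4% and 97.2%. The control paw holds 19378 genes and the arthritic paw 11130, so ranks are not on a like basis between them. Ctsh, with a paw log2 ratio of -0.13, lies at 49.9% in the control and 36.8% in arthritis.

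H3K27ac reads on Ctsl and Ctsz were far fewer in the arthritic than in the control paw, while those on Ctsf and Ctse were more numerous. Relative to the 11130 genes held by both paws, 3 of the 8 members compared were lower by 2-fold or more in arthritis (Ctsl, Ctsz and Ctsa) and 2 were higher (Ctsf and Ctse). Over all 11130 genes, 19.5% lay beyond 2-fold in either direction, 7.88% lower and 11.6% higher. The shares cover only genes with a row in both paws, and the control paw held 19378 genes. Whether genes low in arthritis lack a row, which would shrink the lower share, was not tested. The member ratios are the values for which the set was picked. The members had a median log2 ratio of -0.10, beside 0.11 for all genes, since the shifts ran both ways. Each log2 ratio is arthritis over control, taken on relative levels (mean reads per spot over the mean of the shared genes) plus a pseudocount of 0.1, which draws the ratios of low genes toward 0.

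Ctsl encodes cathepsin L, a potent endopeptidase of lysosomes that also processes the class II invariant chain in the thymus. It had 187 reads in the arthritic paw (161 to 216) and 6404 in the control (6248 to 6563), where the sum is a lower bound because part of its reads lay beyond the exactly recovered range. The arthritic section was the low one although it had more spots, with a read in 160 of 943 spots (interval 14.6 to 19.5%) against 520 of 554 (93.9%, 91.5 to 95.7%). The spot median was 0.0 reads in arthritis and 10.0 in the control, and the most reads in a spot were 2 and 50. The log2 ratio was -5.02, a 32.53-fold difference and at the 0.162 percentile of all genes. Without the pseudocount it was -5.34 (-5.56 to -5.13).

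Ctsz encodes cathepsin Z, a carboxypeptidase found in macrophages and other immune cells. It had 361 reads in arthritis (325 to 400) and 6696 in the control (6537 to 6858, a lower bound as for Ctsl). A read was found in 281 of 943 arthritic spots (29.8%) and in 530 of 554 control spots (95.7%), with spot medians of 0.0 and 11.0 and maxima of 5 and 43 reads. The log2 ratio was -4.29 (19.54-fold), at the 0.386 percentile of all genes. Adjacent genes held fewer reads than these members in the control. Cdk20 beside Ctsl had 87 reads in arthritis and 139 in the control, and Gnas and Tubb1 beside Ctsz had 1340 and 77 reads in arthritis and 1746 and 70 in the control. Prxl2c, the other neighbour of Ctsl, and Nelfcd, which overlaps Ctsz, had 51 and 63 reads in the control, and their arthritic levels were not analysed here.

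Ctsf encodes cathepsin F, which can take part in processing the invariant chain in macrophages. It had 1451 reads in arthritis and 201 in the control, so here the arthritic section was the high one. Reads were found in 680 of 943 spots (72.1%) against 156 of 554 (28.2%). The log2 ratio was 2.39 (5.23-fold), at the 97.5 percentile of all genes, and without the pseudocount 2.61 (2.39 to 2.83). Its neighbour Actn3 had 354 reads in arthritis and 254 in the control.

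Ctse, an aspartic protease of endosomes known from gastric, skin and immune cells, had 1447 reads in arthritis and 437 in the control. Its log2 ratio was 1.40 (2.64-fold; 93.1 percentile), with reads in 71.0% and 48.0% of spots. It fell within 2-fold under 2 of 11 alternative settings, to 0.95 with a pseudocount of 1 and to 0.73 with shares of spots with a read. The other aspartic protease, Ctsd, had 68 reads in the control paw only, and Ctsb, a cysteine protease abundant in macrophages, had 340 there.

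Ctsa had 516 reads in arthritis and 939 in the control, a log2 ratio of -1.04 just past the 2-fold line. The call was lost under 5 of 11 alternative settings, such as a log2 ratio of -0.63 with the deposited values. Its reads could not be separated from those of the overlapping gene Neurl2, which had 921 reads in the control and the same number of reads as Ctsa in 385 of the 402 spots with either (95.8%). Ctsa is therefore uncertain as the source of its signal.

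The 3 remaining members lay within 2-fold. Ctsh, an aminopeptidase, had 177 reads in arthritis and 167 in the control (log2 ratio -0.13). Ctsc had 107 and 96 reads (-0.06), and its interval without the pseudocount spanned 0 (-0.50 to 0.32). Ctss, which completes the cleavage of the invariant chain in antigen-presenting cells, had 181 and 86 reads (0.61); its interval without the pseudocount was 0.45 to 1.21. Without Ctsl and Ctsz, the other 6 members took 72.6 of every 100000 reads on the shared genes in arthritis and 42.8 in the control, whereas with them the sums were 82.8 and 334.

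**Figure D2:**
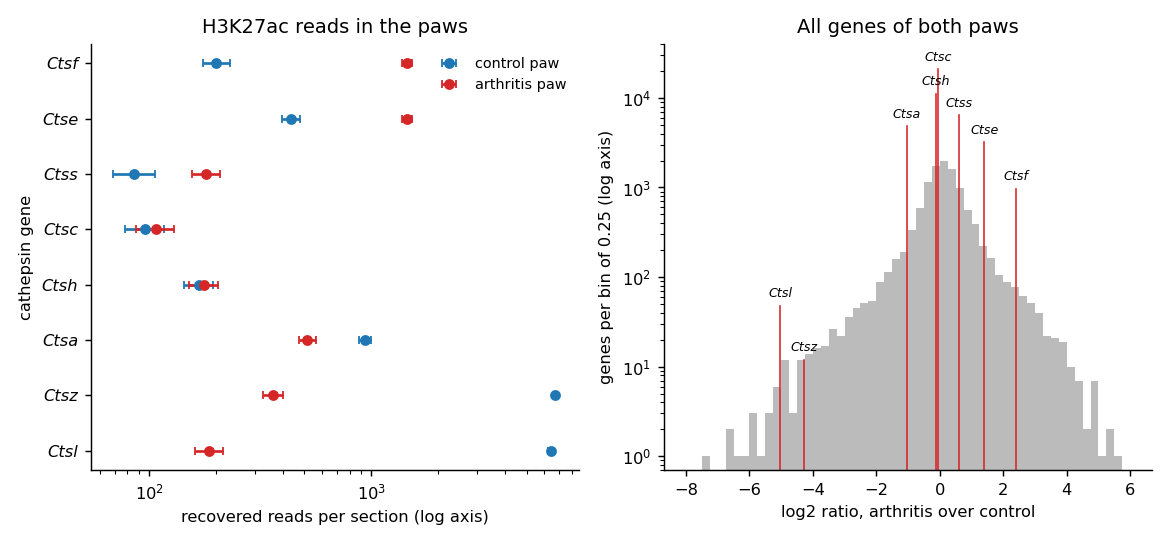
Left, recovered H3K27ac reads per cathepsin gene in each paw on a log axis, with bars for the exact Poisson 95% interval. Right, all 11130 genes of both paws by log2 ratio of arthritis over control in bins of 0.25 (log axis), with red lines at the 8 cathepsin genes; Ctsl (-5.02) and Ctsz (-4.29) lie in the left tail and Ctsf (2.39) toward the right.

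For the 4 members with the widest paw differences (Ctsl, Ctsz, Ctsf and Ctse), levels were compared along the array rows. Band rates are per 100000 reads over all genes of a section, 19378 in the control paw and 11130 in the arthritic paw. Control rates are therefore lower than they would be on the shared genes. When each section was divided into 4 bands of array rows, Ctsl took 102 to 113 and Ctsz 107 to 115 of every 100000 reads in the control bands. The arthritic bands gave 2.93 to 3.82 for Ctsl and 5.83 to 7.43 for Ctsz. These genes were picked for their paw ratios and the bands divide the same reads. The band values are therefore a description and no separate support. Ctsf took 24.2 to 29.2 of every 100000 reads in the arthritic bands and 3.04 to 3.65 in the control bands, and Ctse 25.4 to 28.6 against 6.71 to 8.15. Members with few reads varied more: in the control bands Ctss took 0.548 to 1.76 of every 100000 reads (6 to 30 reads) and Ctsd 0.639 to 1.64. Bands of a section are not replicates.

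At the scale of single array columns Ctsl and Ctsz were less even. In the control paw, columns 1, 5, 9, 13, 17 and 21 held 12.9% of all reads but 5.61% of the Ctsl reads and 5.66% of the Ctsz reads, 0.434 and 0.438 times their share. Ctsb departed the other way, with 43.5% of its reads in those columns, 3.37 times their share. Ctse and Ctsf followed the depth there (1.03 and 1.04 times). In the arthritic paw the direction was opposite: the same columns held 18.3% of all reads, 23.0% of the Ctsl reads and 22.4% of the Ctsz reads (1.25 and 1.22 times). The columns were taken as a fixed list, and no like set of other columns is set beside them here. What sets them apart was not tested, and the share of all genes that depart as much was not computed. The variance of reads per spot around the depth of each spot was taken in units of the counting variance. In the control paw it was 2.31 for Ctsl, 1.81 for Ctsb and 1.56 for Ctsz, beside 1.02 for the median gene. Without those columns in both sections the log2 ratios were -5.20 for Ctsl and -4.47 for Ctsz.

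**Figure D3:**
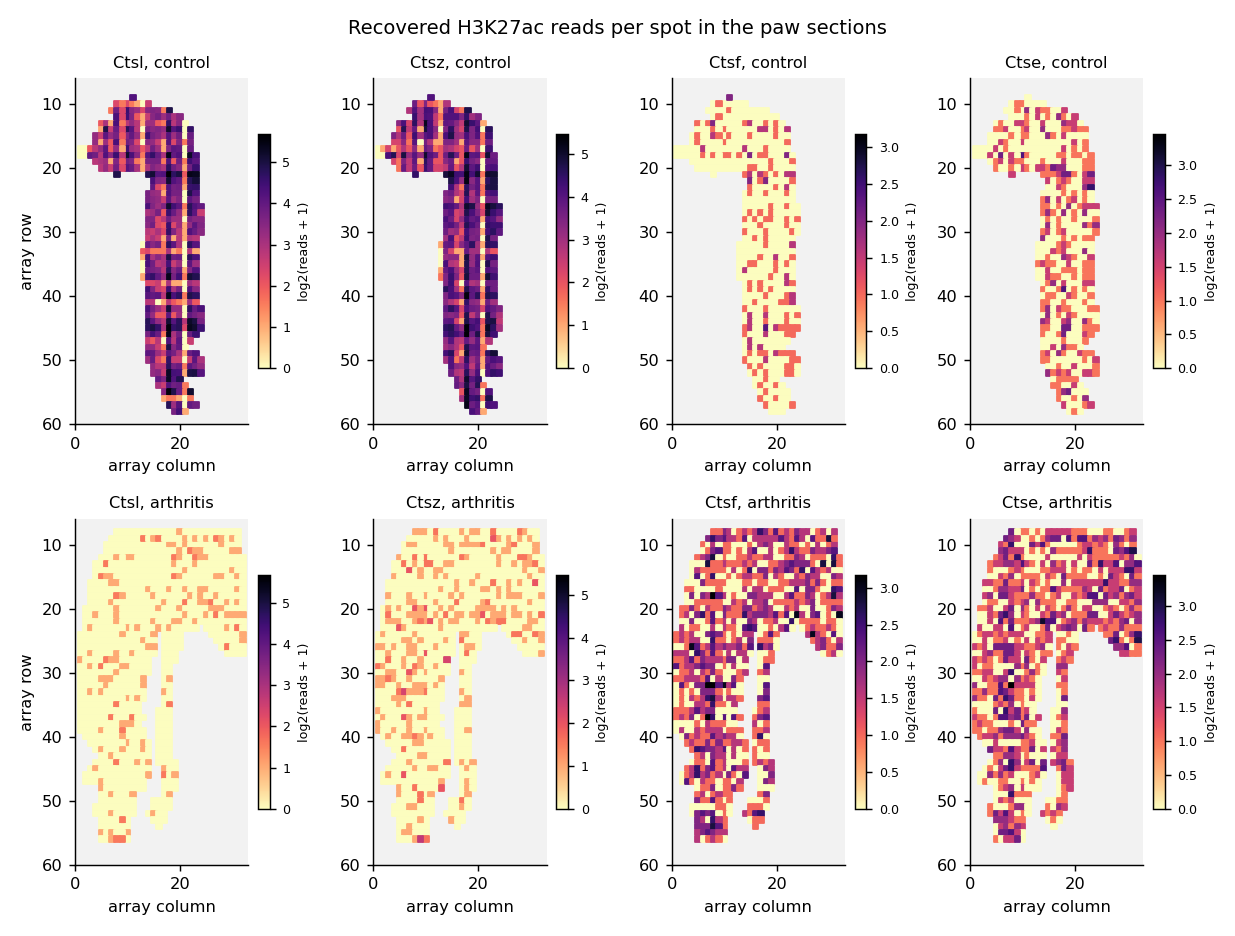
Recovered H3K27ac reads per spot, as log2(reads + 1), for Ctsl, Ctsz, Ctsf and Ctse (columns) in the control paw (top) and the arthritic paw (bottom); axes are array column and row, and both paws share a color scale for each gene. Ctsl and Ctsz fill the control section, with lighter stripes along columns such as 17 and 21, and are sparse in the arthritic one; values are not corrected for the depth of a spot.

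Genes that act with cathepsins did not share a direction in the paws. Over all 11130 genes the median log2 ratio was 0.11, with 11.6% higher and 7.88% lower by 2-fold or more. Genes compared by name are among the up to 3 of a list with the largest absolute ratio and at least 50 reads over both paws. Of the 10 cathepsin inhibitors and activators, 6 were in both paws: 3 lay higher by 2-fold or more, none lower, and the median log2 ratio was 0.59. Lgmn, the legumain protease that cleaves cathepsin precursors, had 3677 reads in arthritis and 810 in the control (1.88), Stfa1, a stefin inhibitor, 900 and 195 (1.76), and Cst6, a cystatin, 306 and 106 (1.03). Of the 13 lysosome membrane and proton pump genes, 6 were compared and all 6 lay above the median gene, with a median of 0.45, but only the pump subunit Atp6v0a1 passed 2-fold (844 and 69 reads, 2.78).

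Of 10 genes for sorting to the lysosome, 6 were compared; Ap1g1, an adaptor subunit, was higher (704 and 184 reads), Nagpa, which uncovers the mannose 6-phosphate tag, lower (-1.19), and the median was -0.11. Of 23 other lysosomal hydrolases, 12 were compared, with a median of 0.14. Arsa, arylsulfatase A, was higher (743 and 160 reads, 1.73), and Neu1, the sialidase that Ctsa protects, lower (245 and 824 reads, -1.81). Among the 5 lysosome transcription factors Mitf was lower (366 and 1128 reads, -1.74) and the others were within 2-fold, with a median of 0.09. Of 5 MHC class II substrates and their regulators 4 were compared, none beyond 2-fold, with a median of 0.09. Of 12 other cathepsins 4 were compared, with a median of -0.37; Ctsr, a cathepsin of the placenta, was lower (536 and 1015 reads, -1.10) and ranked between 77.7% and 97.4% by reads in all 6 sections. Ctsk, the collagenase of osteoclasts and the gene next to Ctss, had 573 reads in the control paw and no row for the arthritic one.

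Markers of cells that make cathepsins differed between the paws as follows. The 6 macrophage markers held by both paws, of 12, took 24.9 of every 100000 reads on the shared genes in arthritis and 23.3 in the control; none passed 2-fold, and their median log2 ratio was 0.14. The 6 osteoclast markers, of 8, took 34.5 and 71.7, with Itgb3 (219 and 1673 reads, -2.93) and Dcstamp (-1.64) lower, Nfatc1 higher (1.26) and a median of -0.21. The 4 dendritic and B cell markers, of 6, had 1124 and 3628 reads, with Ms4a1 (267 and 2465 reads, -3.24) and Cd79a (-1.10) lower and a median of -0.72. Sums for cartilage and bone (5 of 6 genes; 75.8 and 42.2), epidermis (4 of 5; 74.9 and 40.2), skeletal muscle (3 of 5; 40.5 and 21.7), neuron (4 of 5; 53.4 and 57.6) and embryo liver and blood (3 of 5; 17.8 and 6.93) completed the lists, with medians of -0.14, 0.78, 0.70, -0.17 and 0.36. Single genes carried some of these sums. Col1a1 held 2897 of the 4051 arthritic cartilage and bone reads (log2 ratio 2.19), while Sox9 (-1.07) and Col2a1 (-0.16) had negative ratios. Trp63 held 3102 of the 4001 arthritic epidermis reads (0.85). The part of cell composition in the Ctsl and Ctsz difference was not tested.

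Among the embryo marks, Ctsl was the 1 member beyond 2-fold in each comparison. It had 107 H3K27ac reads (87.7 to 129), 17 H3K27me3 reads (9.90 to 27.2) and 2 H3K4me3 reads (0.242 to 7.22). Its log2 ratio of H3K27me3 over H3K27ac was -2.84, where 24.5% of 18653 genes lay beyond 2-fold, 14.1% lower and 10.4% higher. H3K27ac over H3K4me3 gave 4.26, where 4792 of 17762 genes (27%) lay beyond 2-fold, 17.8% higher and 9.17% lower; without the pseudocount it was 5.31, with a counting interval of 3.42 to 8.38. H3K27me3 over H3K4me3 gave 1.43, where 25.5% of 17837 genes lay beyond 2-fold, 15.1% higher and 10.4% lower, but it rested on 2 H3K4me3 reads and its interval without the pseudocount was 0.13 to 5.37. The 3 ratios share sections and are not independent. Relative to the mean of the 9471 genes held by all 6 sections, the Ctsl level was 2.53 in embryo H3K27ac, second to 14.5 in the control paw. The brain followed with 0.737, the arthritic paw with 0.366, embryo H3K27me3 with 0.300 and embryo H3K4me3 with 0.0650. The intervals of the arthritic paw (0.315 to 0.422) and of embryo H3K27me3 (0.175 to 0.480) overlapped, as did those of embryo H3K27me3 and H3K4me3 (0.00787 to 0.235), and the others did not.

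The other 9 members had embryo ratios within 2-fold. Ctse was the best covered, with 77 H3K27ac, 56 H3K27me3 and 57 H3K4me3 reads; its log2 ratio of H3K27me3 was -0.86 over both H3K27ac and H3K4me3, with intervals without the pseudocount of -1.43 to -0.39 and -1.46 to -0.35. Ctsz had 10, 25 and 12 reads and log2 ratios of 0.72 for H3K27me3 over H3K27ac and -0.56 for H3K27ac over H3K4me3. Ctsa had 27, 41 and 19 reads, again with nearly the same counts on Neurl2 (27, 40 and 18). Ctsf had 21, 23 and 12 reads and Ctsh 13, 13 and 9. Ctsb (9, 9 and 8), Ctsc (6, 9 and 3), Ctsd (2, 4 and 3) and Ctss (2, 6 and 2) were so thinly covered that differences of 2-fold were not detectable at this depth. The member medians were -0.09, 0.10 and 0.04 for H3K27me3 over H3K27ac, H3K27me3 over H3K4me3 and H3K27ac over H3K4me3, beside -0.12, 0.08 and 0.20 for all genes.

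Adult brain and whole embryo were compared for H3K4me3 over 8 members. Ctsl (146 brain and 2 embryo reads, log2 ratio 2.39), Ctss (66 and 2, 1.43) and Ctsc (61 and 3, 1.06) were higher in the brain by 2-fold or more. With the deposited values Ctss turned to -1.66, and it fell within 2-fold with a pseudocount of 1 (0.35) and with means of spot shares (0.84). Ctsc fell within 2-fold with a pseudocount of 1 (0.27) and with median scaling (0.69), and Ctsl with a pseudocount of 1 (0.75). The count of 3 of 8 lies near the background, since 37.1% of 11127 genes lay beyond 2-fold, 31.4% higher and 5.72% lower in the brain. The member median of 0.64 likewise lay beside 0.66 for all genes, and with median scaling the median over all genes was 0.06. The shares cover only genes with a row in both sections, and 11345 genes had a brain row against 18066 for the embryo. Whether genes low in the brain lack a row, which would shrink the lower share, was not tested. Without the pseudocount the intervals were 1.60 to 6.53 for Ctsl, 0.42 to 5.40 for Ctss and 0.01 to 3.95 for Ctsc, all wide because of the embryo counts. Ctse, with 284 and 57 reads, had the lowest ratio (-0.38), at the 11.3 percentile. Ctsa (198 and 19 reads), Ctsh (106 and 9), Ctsz (122 and 12) and Ctsf (115 and 12) had log2 ratios of 0.60, 0.68, 0.53 and 0.46, close to the median gene.

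**Figure D4:**
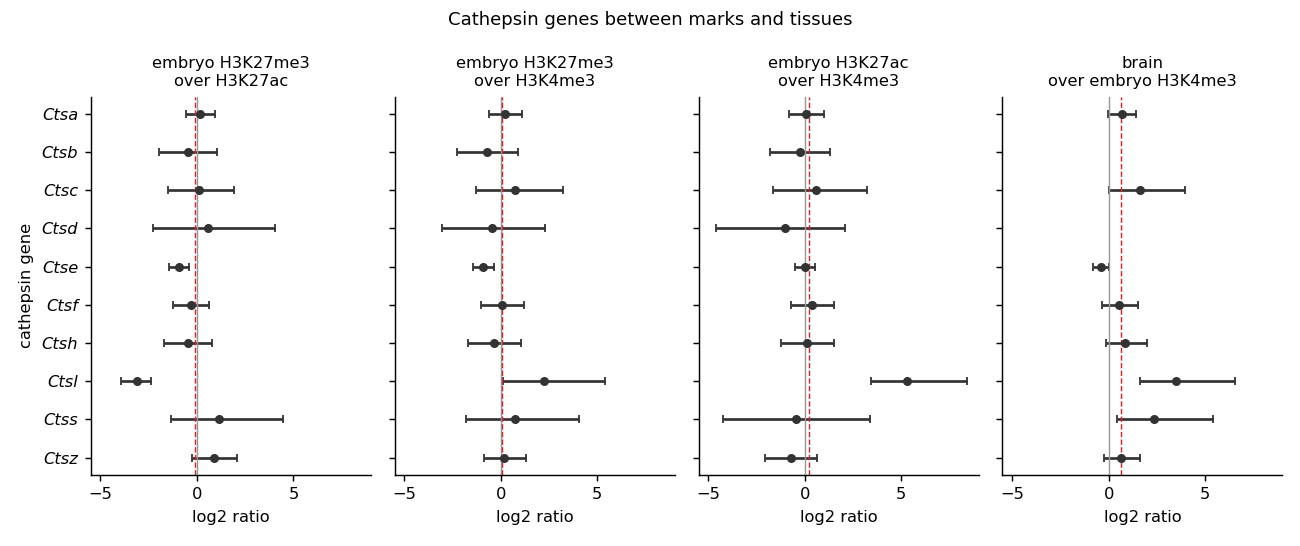
Log2 ratios without pseudocount of each cathepsin gene for 3 pairs of embryo marks and for brain over embryo H3K4me3, with exact binomial 95% intervals (counting error only); the dashed line is the median over all genes, taken with the pseudocount. Ctsl lies apart in H3K27me3 over H3K27ac (-3.10) and in H3K27ac over H3K4me3 (5.31), while most other intervals reach 0.

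Across the 6 sections the genes whose levels most resembled those of Ctsl, among 9471, were Ier3, Sulf1, Ndufa2, Aox3 and Dpy19l4. Pearson correlations of log2 relative levels over the 6 sections were 1.00, 1.00, 0.99, 0.99 and 0.99, as a description of 6 points that differ in tissue, mark and depth. Sulf1 had 468 reads in the arthritic paw and 1765 in the control, a smaller difference than that of Ctsl. Among the members, Ctsa and Ctsz each gave 0.75, Ctsc 0.37, Ctsh 0.30, Ctss 0.08, Ctsf -0.17 and Ctse -0.43.

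The deposited values ranked most members much as the recovered reads did, with exceptions among low counts. Ctss in embryo H3K4me3, with 2 reads, ranked at 15.5% by reads and at 79.2% by mean deposited value. Of its deposited sum, 97.4% came from 1 spot, which held 1 Ctss read among 712 reads in all. Its brain over embryo log2 ratio was 1.43 from reads and -1.66 from the deposited values, so the sign differed between the kinds of value. Ctsl in the arthritic paw ranked at 31.8% by reads and 54.0% by deposited value, and its paw log2 ratio was -4.06 with the deposited values.

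**Figure D5:**
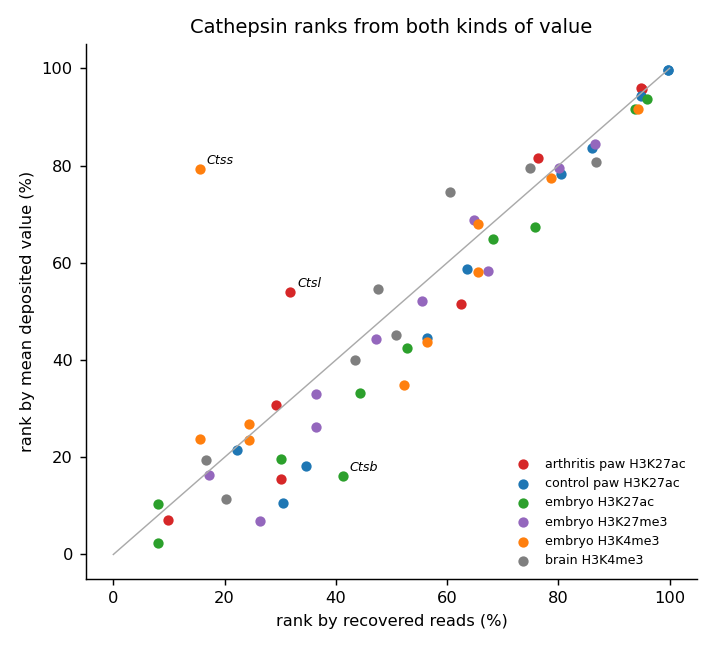
Rank of each cathepsin gene among all genes of its section by recovered reads (horizontal, %) and by mean deposited value (vertical, %), colored by section, with the line of equality; genes over 20 percentage points from it are named. Ctss in embryo H3K4me3 lies farthest above the line (15.5% and 79.2%).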

How the data were processed

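Chromatin cut by protein A-Tn5 was read out by array spot in 6 sections. The submitters' processing notes name Bowtie2, featureCounts, MACS2 and the builds mm9 and hg19, while versions, roles and the counted region were not found in the labels. What the authors deposited is quantile-normalised signal for each gene in each spot: the top 500 values are one list, scaled by a factor that differs between spots. Since tied counts had been ranked in a fixed gene order, read numbers per spot were recovered from falls in that order. Counts held by fewer than 5 genes of a spot are not exact, and a sum with over 10% of its reads beyond that point is a lower bound. Recovered reads gave 92.9 to 95.4% of the list's total. Summed reads equalled the list at 98.8 to 99.1% of ranks in the paws, 50.8 to 51.6% in the embryo sections and 37.4% in the brain. On simulated data 98.4% of reads were recovered for the arthritic and 98.8% for the control paw (11130 and 19378 genes). The simulation covered the paws only and built in the assumed order of ties, so it does not check the embryo and brain recovery. The gene order used was that of the control paw, and the embryo sections list their genes in another order.

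Relative levels were compared as log2 ratios with a pseudocount of 0.1, and 2-fold was the call. No test was run with 1 section per group. The 10 members were named with all their values. Also named were the 5 genes most correlated with the member of largest paw ratio, adjacent genes, and from each of 7 pathway and 8 marker lists up to 3 genes with the largest paw ratio among those with 50 reads over both paws. Members and lists were chosen with earlier results of these data known. Gene spans and neighbours came from RefSeq (GRCm38.p6; 19262 of the 19378 genes matched); the files' build differs, so only lengths, order and promoter sequence were used. Python 3.11.15, numpy 2.4.6, pandas 2.3.3, scipy 1.17.1 and matplotlib 3.10.9 were used. The alternatives were the deposited values, pseudocounts of 1 and 0.01, scaling by the median gene, means of spot shares, shares of spots with a read, even or odd array columns, leaving out columns 1, 5, 9, 13, 17 and 21, and genes of the upper 50% by level; raising the sums to the list's total was added after seeing the data.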

Additional observations from a re-analysis of the deposited data

How the results depend on the processing

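No paired analysis was possible because each group held 1 section. By reads alone, not per kilobase, 31 of the 56 member and section pairs lay above the median gene of their section. This count was 26 to 32 under the alternatives run for it. Those were the deposited values, means of spot shares, shares of spots with a read and the array column settings. The equal count per kilobase was not rerun under alternatives. In the paws Ctsl (-5.43 to -2.08), Ctsz (-4.49 to -1.39) and Ctsf (1.43 to 2.58) stayed beyond 2-fold under all 11 alternatives, as did Ctsl in the embryo for H3K27me3 over H3K27ac (-3.36 to -1.71) and H3K27ac over H3K4me3 (2.05 to 5.16). Ctse in the paws fell within 2-fold with a pseudocount of 1 and with shares of spots (0.73). The 5 paw members beyond 2-fold became 3 with a pseudocount of 1 and 3 with shares of spots, and the member median of -0.10 became -1.04 over the 5 members in the upper 50% by level, where fewer genes enter.

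For H3K27me3 over H3K27ac the count of 1 became 2 with a pseudocount of 0.01, 4 with even and 2 with odd array columns. For H3K27me3 over H3K4me3 the count of 1 became 2 with the deposited values, with median scaling and with even columns, and 0 with a pseudocount of 1, with odd columns and over the 4 members of the upper 50%. For H3K27ac over H3K4me3 the count of 1 became 3 with the deposited values, with even columns and with odd columns. For the brain the count of 3 became 0 with a pseudocount of 1, 5 with even columns and 0 over the 2 members of the upper 50%. Even or odd columns alone hold fewer reads, and otherwise the cause was not tested. The share of all genes beyond 2-fold is not given for any alternative, in the paws, the embryo or the brain. The changed counts are therefore no result about the cathepsins. Brain over embryo Ctss reversed to -1.66 with the deposited values. Median scaling moved the brain median over all genes from 0.66 to 0.06, where Ctsc then fell within 2-fold (0.69) and Ctse became lower by over 2-fold (-1.12), which left the count at 3. Raising the sums to the list's total gave -5.05 for Ctsl and -4.30 for Ctsz in the paws. Of 481 single-member values under an alternative, 422 lay within 0.5 (log2) of the main value and 18 moved by more than 1. The sign turned in 38, and 4 of these were then beyond 2-fold: Ctss with the deposited values in the brain and in H3K27me3 over H3K4me3 (-2.82), and Ctsd with even columns in H3K27me3 over H3K27ac (-1.23) and H3K27ac over H3K4me3 (1.20), all on 2 to 4 embryo reads in at least 1 section. Depth limits the embryo most, where 4 members had under 10 reads under every mark.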
